A study of Mus musculus with 6 samples.

Results

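The genes described here encode 10 neuronal microtubule-associated and growth cone proteins, whose transcripts were sequenced in CAD cells. The labels describe CAD as a catecholaminergic line of the central nervous system, from mouse. They were taken by gene symbol (Mapt, Map1a, Map1b, Map2, Map4, Stmn1, Stmn2, Stmn3, Gap43 and Dpysl3), and all 10 were found once each among the 26436 genes of the authors' deposited table. The 3 undifferentiated libraries came from cells growing in serum (fetal bovine, in DMEM/F12 with penicillin and streptomycin). The 3 differentiated libraries came from cells held for 5 days in that base medium and antibiotics but no serum, supplied with insulin, transferrin and selenium, so loss of serum, the supplement and differentiation cannot be told apart. All libraries came from 1 cell line, and the labels do not say whether those of a group were separate cultures, so the spread between them may be technical.

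Microtubules are polymers of tubulin that fill axons and dendrites and carry transport along them. Tau, MAP2 and MAP4 bind along the polymer through related repeats and stabilise it, and MAP1A and MAP1B are large filamentous binding proteins of a separate family. Stathmins bind free tubulin and favour disassembly, and the CRMPs, with CRMP4 encoded by Dpysl3, couple tubulin and actin at the growing tip. GAP-43 is a membrane-attached substrate of protein kinase C that is abundant in growth cones.

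Differentiation was accompanied by higher transcript levels of Gap43 and of all 3 genes of the tau family, and by lower levels of Dpysl3 and, to a small extent, Stmn1. In the authors' deposited table, 5 of the 10 genes were higher and 2 were lower at an adjusted p under 0.05 (Wald test with Benjamini-Hochberg adjustment over 20285 genes). The other 3 genes, Map1b, Stmn2 and Stmn3, did not pass. Over all genes tested 18.2% were called higher and 17.7% lower, or 35.9% in either direction. Among the 7304 genes averaging at least 1000 normalised counts, which hold 9 of the 10, 19.4% were called higher and 30.8% lower, or 50.2% either way. The median log2 fold change of the 10 was 0.38, beside 0.01 over all genes tested. The summed normalised count of the 10 was nearly the same in both groups, at an implied 167732 in undifferentiated and 166268 in differentiated cells, since the fall of Dpysl3 offset the gains.

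The authors' deposited table gives 1 mean and 1 fold change per gene, so no value of a single library is given. Group means called implied were computed from that mean and that fold change, taking both groups as equally large. To compare genes, implied means were divided by the length of all annotated exons, giving normalised counts per kb. The spread given with them (± SD) is 1 library's spread as fitted by the authors' model and recovered here from the standard error of the fold change. It is not a spread of observed values. In bulk RNA, a change in the share of cells that express a gene and a change in its RNA per cell cannot be told apart.

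In undifferentiated cells 4 of the genes stood at a similar high level per kb of annotated exon. This likeness depends on the length used. With the longest transcript as the length, Stmn1 made up 71.4% of the summed stathmin counts per kb and Stmn3 27.7%. Stmn1 had an implied 6740 ± 417 normalised counts per kb, Dpysl3 5893 ± 525, Map1b 5630 ± 608 and Stmn3 4743 ± 466, and each overlapped its neighbour in this order within 1 SD. Gap43 followed at 2921 ± 304 per kb. The other genes were far lower, with Mapt at 650 ± 81.4, Map1a at 385 ± 36.5, Map4 at 281 ± 28.6 and Map2 at 148 ± 12.5 per kb. Stmn2 was last at 93.5 ± 45.2 per kb and overlapped Map2.

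In differentiated cells Gap43 moved to the top of the order, at an implied 6539 ± 676 normalised counts per kb. Map1b (5927 ± 641), Stmn1 (5574 ± 345) and Stmn3 (5346 ± 525) came next in counts per kb, each within 1 SD of its neighbour. Dpysl3 dropped below all of these, to 2859 ± 255 per kb, and was followed by Mapt at 1407 ± 176. The lowest places were held by Map1a (463 ± 43.8), Map4 (395 ± 40.1), Map2 (223 ± 18.7) and Stmn2 (150 ± 72.2) in counts per kb, of which Map1a and Map4 overlapped, as did Map2 and Stmn2. With the longest transcript in place of all exons, Stmn1 had rank 1 in both groups and Gap43 rank 3 in differentiated cells. The overlaps given for both groups are for all exons and were not computed for the longest transcript.

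**Figure D1:**
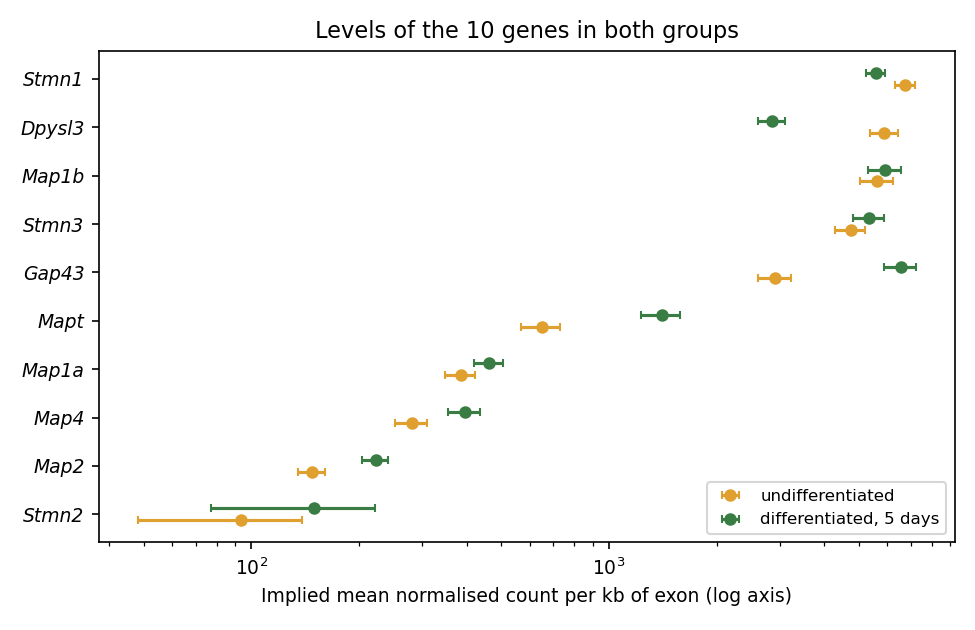
Implied mean normalised count per kb of exon (x axis, log scale) of the 10 genes (y axis) in undifferentiated and differentiated cells. Points are implied group means and bars the fitted spread of 1 library (± 1 SD). Gap43, Mapt and Dpysl3 are the genes whose points lie farthest apart relative to their bars, and the bars of Stmn2, Stmn3, Map1b and Map1a overlap between the groups.

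Gap43 had the largest rise of the 10. Its implied mean went from 4448 normalised counts in undifferentiated to 9959 in differentiated cells, and the 95% interval of the fold ran from 1.90 to 2.64. In the authors' deposited table its log2 fold change was 1.16 (SE 0.12, adjusted p 2.02e-19), higher than that of 96.5% of genes averaging at least 100 normalised counts. Gap43 lies on chromosome 16 from 42248442 to 42340651 in GRCm38 coordinates, on the minus strand.

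Other genes of the growth cone, its membrane skeleton and its actin and intermediate filaments moved in both directions. Of 25 tested, 10 were called higher, 3 lower and 12 neither, with a median log2 fold change of 0.12. Among all tested genes averaging at least 1000 normalised counts, 19.4% were called higher and 30.8% lower, or 50.2% either way. The list was called about as often as these genes, with more of its calls higher. Pcp4, which encodes a calmodulin-binding peptide (1.26, SE 0.16), Gpm6b, a proteolipid family gene (1.00, SE 0.16), and Marcks (0.74, SE 0.09) rose in the authors' deposited table. Marcks encodes an actin-binding substrate of protein kinase C. Tagln3, a calponin family gene, fell by 0.78 (SE 0.17) on the log2 scale in the authors' deposited table. Basp1, whose protein is related to GAP-43 in function, was at 0.42 (SE 0.12, adjusted p 0.00138) in the authors' deposited table, and its interval lay below that of Gap43.

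Mapt, the gene for tau, rose almost as much as Gap43. Its implied mean went from 4896 to 10597 normalised counts, and the interval of the fold ran from 1.77 to 2.64. The log2 fold change of Mapt was 1.11 (SE 0.15, adjusted p 1.62e-12) in the authors' deposited table. The intervals of Mapt and Gap43 overlapped almost wholly. Mapt lies on chromosome 11 from 104231390 to 104332090, on the plus strand, and has 12 annotated transcripts, which the gene-level values do not separate.

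Map2, a marker of the dendrite compartment in mature neurons, rose about as much as Map4. The implied mean of Map2 went from 2432 to 3663 normalised counts, and its log2 fold change in the authors' deposited table was 0.59 (SE 0.10, adjusted p 4.42e-08). Map4, the member of the family that is also expressed in many non-neuronal cells, went from an implied 4257 to 5983 normalised counts. Its log2 fold change in the authors' deposited table was 0.49 (SE 0.12, adjusted p 0.000266), and against a null of a 1.2-fold change it was not called (adjusted p 0.275). The intervals of Map2 and Map4 overlapped each other, and neither reached that of Mapt. Map2 lies on chromosome 1 from 66175273 to 66442583 and Map4 on chromosome 9 from 109931460 to 110083955, both on the plus strand.

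Tau also gained within its family. The implied level of the family per kb rose from 1079 to 2025 normalised counts, of which Mapt made up 60.2% in undifferentiated and 69.5% in differentiated cells. The share of Map4 went from 26.1% to 19.5% of the summed counts per kb, and that of Map2 from 13.7% to 11.0%. With the longest transcript as the length, the share of Mapt was 46.2% and 56.3%, so the level depends on the length used while the direction was the same. These shares have no test of their own.

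Fold changes in the MAP1 family were small. Map1b had a high count here, 21st of 26436 by mean in the authors' deposited table (91566 normalised counts, not corrected for length). The gene encodes a protein prominent in growing axons. Its implied means were 89208 and 93923 normalised counts, and its log2 fold change in the authors' deposited table was 0.07 (SE 0.13, adjusted p 0.710). The 95% interval of that fold ran from 0.886 to 1.25. Map1a, whose protein is typical of mature neurons, went from an implied 4682 to 5629 normalised counts. Map1a was, in the authors' deposited table, at a log2 fold change of 0.27 (SE 0.11, adjusted p 0.0488), just inside the threshold. It was not called when no filter on low counts was applied (adjusted p 0.0635), after centring on the median of protein-coding genes (0.135) or when the transcript length trend was removed (0.442). Map1s, another gene of this family, fell by 0.36 (SE 0.10, adjusted p 0.00175) on the log2 scale in the authors' deposited table. Map1b made up 88.6% of the summed counts per kb of the family in undifferentiated and 89.0% in differentiated cells. On GRCm38, Map1a lies on chromosome 2 from 121289600 to 121310832 and Map1b on chromosome 13 from 99421446 to 99516540, on the minus strand. Exons of Map1a overlap those of Ppip5k1 on the opposite strand over 272 bases, and the authors' strand setting is not given in the sources used here.

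Sequence just upstream of the gene start is shown for Map2 (50.6% higher) and for the related pair Map1a (20.2% higher, at the threshold) and Map1b (not called). The fold intervals of Map2 and Map1b did not overlap, while that of Map1a overlapped both. The sequences come from RefSeq on GRCm38.p6 and stop before both the RefSeq and the GENCODE start. Capitals mark the GC box GGGCGG, the CCAAT box CCAAT and the TATA box TATAAA on either strand, matches that share letters included. The stretches are chr1:66175079-66175272 on the plus strand for Map2, chr2:121289352-121289599 on the plus strand for Map1a and chr13:99516603-99516852 on the minus strand for Map1b.
Map2: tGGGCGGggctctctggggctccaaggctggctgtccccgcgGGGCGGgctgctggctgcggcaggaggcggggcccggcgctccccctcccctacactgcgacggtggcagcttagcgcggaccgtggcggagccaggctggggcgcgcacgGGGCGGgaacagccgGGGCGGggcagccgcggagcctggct
Map1a: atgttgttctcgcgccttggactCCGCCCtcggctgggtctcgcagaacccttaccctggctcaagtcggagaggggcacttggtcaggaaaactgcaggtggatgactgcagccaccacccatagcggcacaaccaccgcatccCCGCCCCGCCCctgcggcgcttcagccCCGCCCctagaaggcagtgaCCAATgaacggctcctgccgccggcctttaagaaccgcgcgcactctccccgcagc
Map1b: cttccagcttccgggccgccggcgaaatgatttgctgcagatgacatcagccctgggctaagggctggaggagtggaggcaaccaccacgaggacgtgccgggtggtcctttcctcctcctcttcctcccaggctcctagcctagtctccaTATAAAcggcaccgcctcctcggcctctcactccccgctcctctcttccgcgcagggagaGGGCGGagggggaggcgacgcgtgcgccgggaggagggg
The Map2 stretch holds 4 GC boxes and no CCAAT or TATA box, and 79.4% of its bases are G or C. The Map1a stretch holds 4 GC boxes, of which a pair shares a letter, and 1 CCAAT box, and the Map1b stretch holds 1 GC box and 1 TATA box. Of all 32851 RefSeq promoter windows cut to the length of the Map1b stretch, 32.7% hold a GC box, 33.8% a CCAAT box and 12.4% a TATA box. Cut to the shorter length of the Map2 stretch, 23.6% hold a GC box, 27.5% a CCAAT box and 8.9% a TATA box. A usable stretch of Stmn3, not printed, holds none of these boxes and has 48.8% G or C. These matches describe the letters alone.

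Dpysl3 had the largest fall. In undifferentiated cells it had rank 2 of the 10 per kb of exon, within 1 SD of Stmn1 and Map1b, and rank 3 with the longest transcript. Its implied mean went from 38943 to 18890 normalised counts, and the interval of the fold ran from 0.421 to 0.560. In the authors' deposited table it fell by 1.04 on the log2 scale (SE 0.11, adjusted p 4.43e-21), and 1.75% of genes averaging at least 100 normalised counts had a lower fold change. Dpysl3 lies on chromosome 18 from 43320984 to 43438286, on the minus strand.

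Genes of the CRMP family moved in both directions. Of the 4 tested relatives of the CRMPs and stathmins, 3 were called higher and 1 lower. Over all genes tested, 35.9% were called in either direction. Crmp1 (0.46, SE 0.18, adjusted p 0.0254) and Dpysl2, which encodes CRMP2 (0.50, SE 0.17, adjusted p 0.00948), rose in the authors' deposited table. Dpysl5, which encodes CRMP5, fell by 0.67 (SE 0.13, adjusted p 2.48e-06) on the log2 scale in the authors' deposited table. The summed level of Dpysl3, Crmp1, Dpysl2 and Dpysl5 went from an implied 8665 to 6179 normalised counts per kb. Dpysl3 made up 68.0% of it in undifferentiated and 46.3% in differentiated cells, while Crmp1 went from 17.8% to 34.5%. With the longest transcript as the length, Crmp1 made up 50.6% in differentiated cells and Dpysl3 35.4%, so which of the pair was the more abundant there depends on the length used. After centring on the median of protein-coding genes Crmp1 was not called (adjusted p 0.0536).

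**Figure D2:**
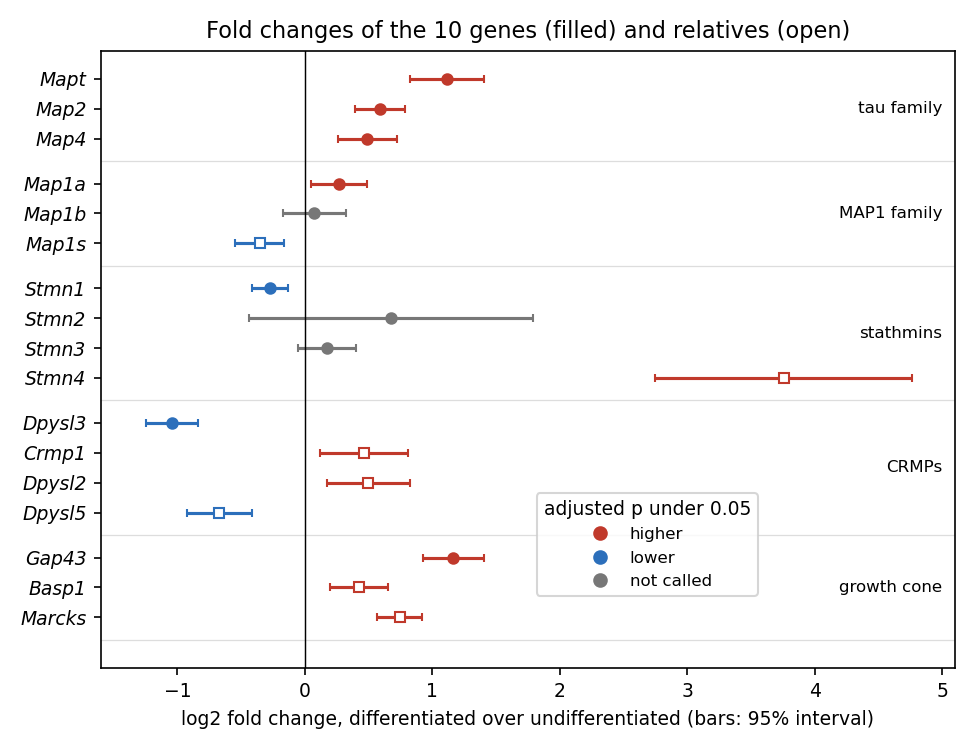
Log2 fold change with differentiation (x axis) for the 10 genes (filled circles) and relatives (open squares), grouped by family, with 95% intervals from the authors' standard errors. Dpysl3 and Dpysl5 lie below 0 while Crmp1 and Dpysl2 lie above it, and the interval of Stmn2 runs from -0.44 to 1.79.

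The stathmin genes differed in both direction and precision. Stmn1, which is expressed in many dividing cells, went from an implied 12954 to 10713 normalised counts. In the authors' deposited table it fell by 0.27 on the log2 scale (SE 0.07, adjusted p 0.000911), a change of -17.3%. Its standard error was 0.754 times that of genes of like mean. It was not called against a null of a 1.2-fold change or when the mean expression trend was removed (adjusted p 0.0707). Stmn1 lies on chromosome 4 from 134468320 to 134473843, on the plus strand.

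Stmn3, a neuronal stathmin gene, had implied means of 5388 and 6073 normalised counts. Its log2 fold change in the authors' deposited table was 0.17 (SE 0.12, adjusted p 0.258), and the interval of the fold ran from 0.963 to 1.32. Stmn2, whose protein is a growth cone marker of neurons, had implied means of 524 and 838 normalised counts. The log2 fold change of Stmn2 in the authors' deposited table was 0.68 (SE 0.57, adjusted p 0.389), so that the interval of the fold ran from 0.738 to 3.47. It therefore covers both no change and a rise as large as that of Gap43. Stmn3 lies on chromosome 2 from 181306459 to 181314500 and Stmn2 on chromosome 3 from 8509360 to 8561606.

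Stmn2 was the least precisely measured of the 10, at a mean of 681 normalised counts. Its standard error was 4.38 times that of genes of like mean, a ratio above that of 99.4% of genes averaging at least 100 normalised counts. The fitted spread between libraries was 48.2% of the mean for Stmn2 and between 6.12% and 12.4% for the other 9. Which library or group carried that spread was not analysed here.

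**Figure D3:**
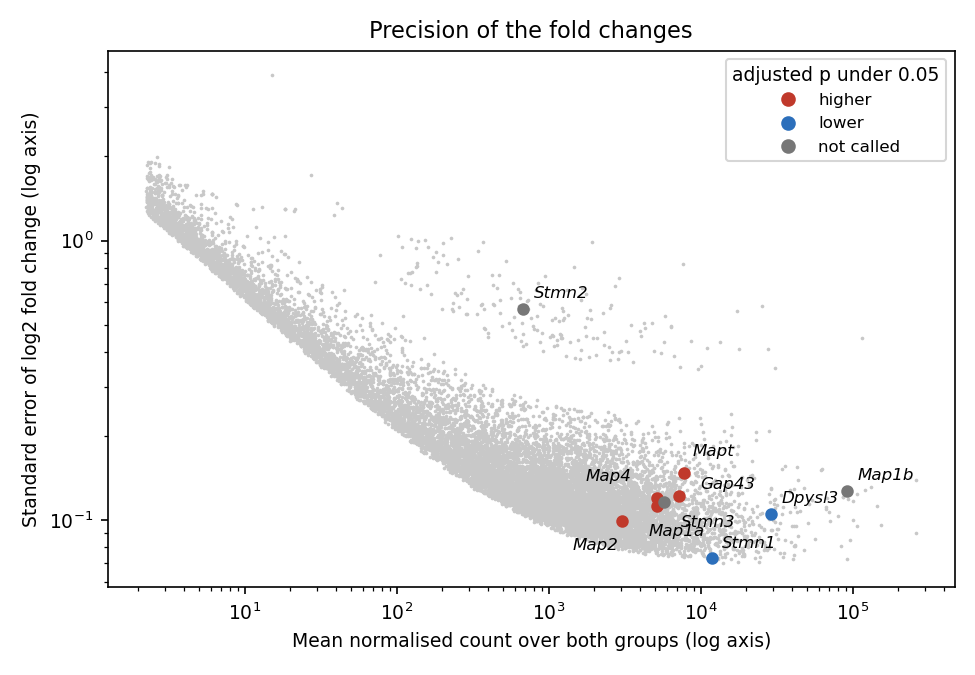
Standard error of the log2 fold change (y axis, log scale) against mean normalised count (x axis, log scale) for named genes with an adjusted p (grey) and for the 10 genes (coloured by call). Stmn2, at a mean of 681 and a standard error of 0.57, lies in a sparse cloud above the main band, while the other 9 lie within the band.

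Stmn4, the remaining stathmin gene, rose from near the floor. Its implied mean went from 4.77 to 64.6 normalised counts, with a log2 fold change of 3.76 (SE 0.51, adjusted p 1.04e-11) in the authors' deposited table. At that undifferentiated level the size of the fold is poorly fixed, and Stmn4 made up 0.304% of the summed stathmin counts per kb in differentiated cells. The share of Stmn1 in that sum went from 58.2% to 50.2%, and that of Stmn3 from 41.0% to 48.2%. With the longest transcript as the length, Stmn1 went from 71.4% to 64.2% and Stmn3 from 27.7% to 34.0%.

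**Figure D4:**
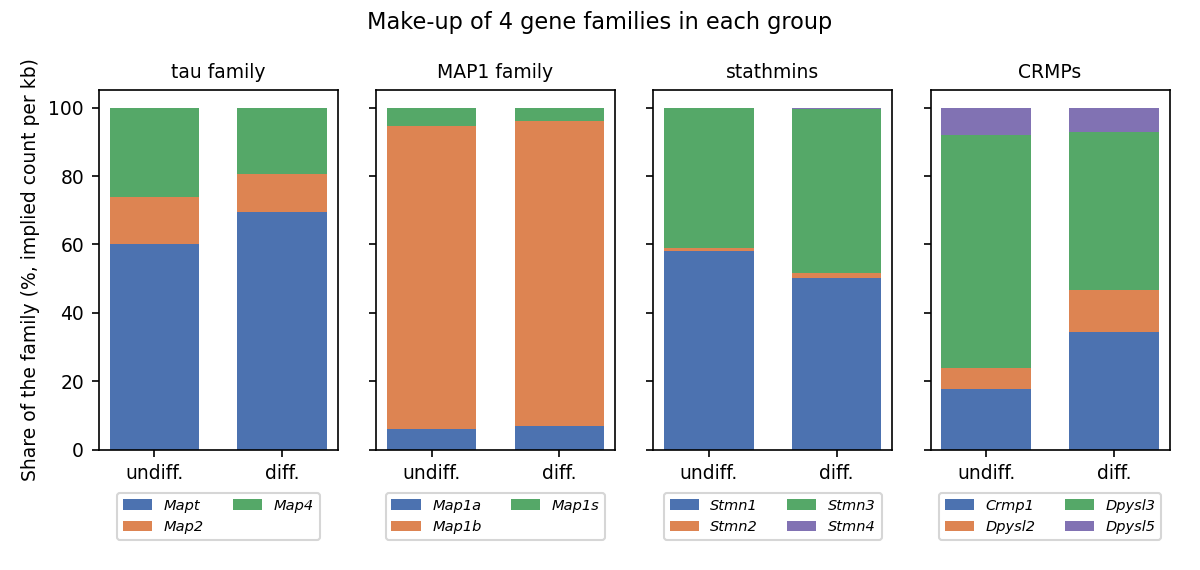
Share of each gene in the summed implied counts per kb of its family (y axis, %), in undifferentiated and differentiated cells, for the tau family, the MAP1 family, the stathmins and the CRMPs. Dpysl3 shrinks from 68.0% to 46.3% of the CRMPs, Mapt grows from 60.2% to 69.5% of the tau family, and Map1b holds close to 89.0% of the MAP1 family in both groups.

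The genes did not move as a block. Of 45 pairs among the 10, 26 had 95% intervals that did not overlap. Mapt and Gap43 lay above Map2, Map4, Map1a, Map1b, Stmn1, Stmn3 and Dpysl3, and Dpysl3 lay below all the other 9. These intervals take each gene alone, and errors shared between genes of the same libraries are not in them.

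Other microtubule and growth cone genes were counted from 7 lists, which also hold genes of actin, intermediate filaments, kinases and phosphatases. Of 143 tested, 48 were called higher and 36 lower, with a median log2 fold change of 0.05. The shares over all genes tested were 18.2% higher and 17.7% lower, and over genes averaging at least 1000 normalised counts 19.4% and 30.8%. They are also the background for the counts of single lists below. The share of the list called lower lies between the 2 background shares, and the share called higher lies above both. With the transcript length trend removed the split was 40 higher and 45 lower.

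Of 25 microtubule-associated genes of the mitotic spindle, 20 were called lower and 2 higher, and the median log2 fold change was -0.69. Gtse1 (-1.13, SE 0.18), Ckap2 (-1.03, SE 0.15), Dlgap5 (-0.998, SE 0.15) and Tacc3 (-0.87, SE 0.14) fell most in the authors' deposited table. All 4 encode proteins that act on spindle microtubules in dividing cells.

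Of 21 other structural microtubule-associated genes, 8 were called higher and 3 lower, and their median log2 fold change was 0.06. Tppp (1.40, SE 0.32) and Tppp3 (0.90, SE 0.18), which encode tubulin polymerisation promoting proteins, rose in the authors' deposited table. Map6d1 (0.97, SE 0.23) and Jakmip1 (0.74, SE 0.23) rose too in the authors' deposited table. Dcx, which encodes doublecortin of migrating neurons, was nearly absent in the authors' deposited table, which lists it without an adjusted p at a mean of 1.05 normalised counts. Of 16 plus-end and severing genes, 5 were called higher and 3 lower, with a median of 0.06. Fignl1, an AAA ATPase gene that also acts in DNA repair, fell by 1.12 (SE 0.13) on the log2 scale in the authors' deposited table. Nav3 (0.68, SE 0.16), the katanin-like gene Katnal1 (0.62, SE 0.10) and the linker protein gene Clip2 (0.58, SE 0.20) rose in the authors' deposited table.

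Genes of kinases, phosphatases and scaffolds that act on these proteins were called higher in 14 of 29 cases and lower in 2, with a median log2 fold change of 0.31. Mapk8ip2, a JNK scaffold gene (0.98, SE 0.13), the phosphatase subunit gene Ppp2r5b (0.76, SE 0.12), the tau kinase gene Mark4 (0.75, SE 0.15) and Camk2b (0.75, SE 0.30) rose in the authors' deposited table. Camk2b was not called after centring on the median of protein-coding genes (adjusted p 0.0569). Gsk3b, another tau kinase gene, was at 0.44 (SE 0.11, adjusted p 0.000419) and its relative Gsk3a at -0.22 (SE 0.09, adjusted p 0.0313) in the authors' deposited table. The pair was named after its values were seen.

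Of 23 genes of tubulin modification and folding, 6 were called higher and 4 lower, with a median log2 fold change of -0.07. Vash1, which encodes a tubulin carboxypeptidase that removes the terminal tyrosine, rose most, from an implied 234 to 985 normalised counts (log2 fold change 2.08, SE 0.14, adjusted p 2.87e-50, in the authors' deposited table). Ttl, the ligase gene that puts this tyrosine back, fell by 0.55 (SE 0.12) on the log2 scale in the authors' deposited table. Vash2, a relative of Vash1 with a mean of 1343 normalised counts, was at -0.26 (SE 0.16, adjusted p 0.201) in the authors' deposited table. Svbp of the same list was at -0.13 (SE 0.22, adjusted p 0.686), so neither was called. Vash2 and Svbp were named after their values were seen. Atat1, the tubulin acetyltransferase gene (0.58, SE 0.17), and Ttll7, a polyglutamylase gene (0.58, SE 0.12), rose in the authors' deposited table.

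**Figure D5:**
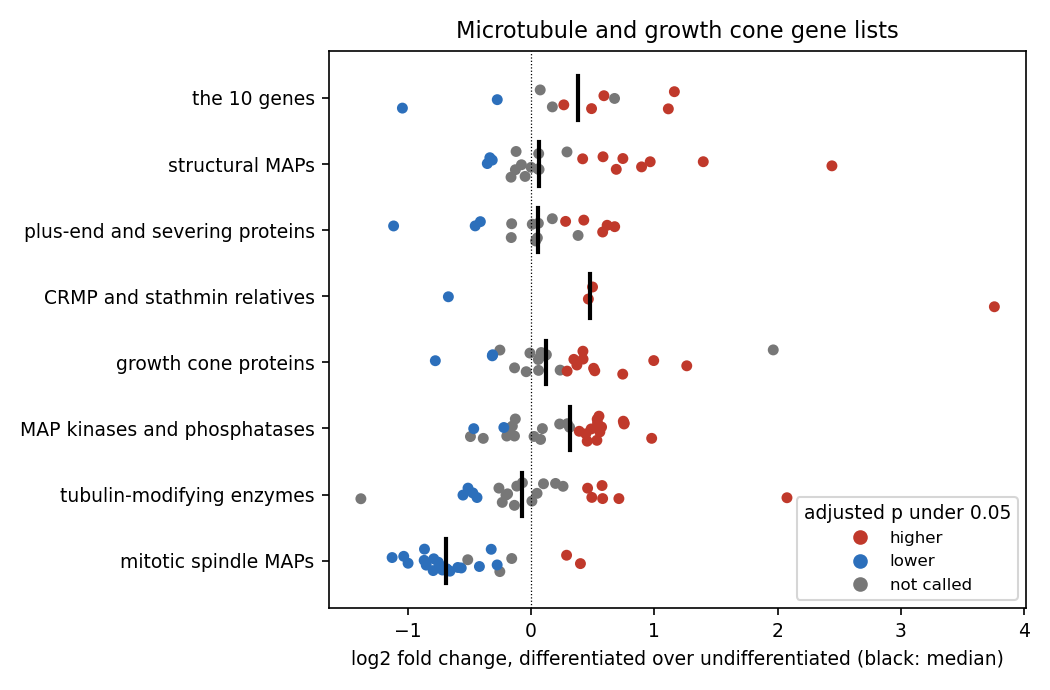
Log2 fold change with differentiation (x axis) for the 10 genes and for the tested members of 7 lists (y axis), 1 point per gene, with the median of each list in black. The median of the spindle list is -0.69 and those of the other 6 lists lie between -0.07 and 0.48.

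Markers of the labelled cell type were present but uneven. In the authors' deposited table Th had a mean of 91.3 normalised counts and Dbh one of 291, while the pan-neuronal Tubb3 had 16488, Syt1 7173 and Uchl1 8677. The Dbh mean joins unlike groups, at an implied 569 normalised counts in undifferentiated and 14.0 in differentiated cells. The log2 fold change of Dbh in the authors' deposited table was -5.35 (SE 0.62, adjusted p 3.63e-16). Of 8 tested catecholaminergic markers, 3 were called higher and 2 lower, with Dbh among the latter. The neuronal genes Rbfox3, Nefl and Nefm had means between 1.16 and 1.60 in the authors' deposited table. Of the glial markers, Gfap had a mean of 4.15, S100b of 1.44 and Sox10 of 0.31 in the authors' deposited table. The summed implied level of 3 astrocyte markers was 7.42 normalised counts in undifferentiated and 13.0 in differentiated cells, and that of 3 macrophage markers 8.51 and 13.2. Fibroblast markers summed to 113 and 421 over 6 genes, mostly through Pdgfrb, with Dcn and Lum at means under 1. Endothelial markers summed to 469 and 810 over 4 genes, mostly through Pecam1. Their part in the results above was not tested.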

How the data were processed

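RNA of 3 undifferentiated and 3 differentiated CAD libraries was made into stranded libraries and read as single ends of 50 bp, per the labels' protocols. Per the submitters' processing notes the build was GRCm38.p6 and the tools included STAR 2.5.1a, Trimmomatic 0.36, FastQC 0.11.5 and DESeq2. Not given in the sources used here are the read counter, its strand setting and the annotation release. The deposited signal is the mean normalized count per gene, per the file headers. The authors' log2 fold change and its log2 standard error, their Wald score, and their p-value and adjusted p-value were taken as deposited. The direction follows the name of the comparison. The score equals the fold change over its standard error (largest difference 1.24e-13), which alone does not show whether fold changes were shrunken. Recomputing the Benjamini-Hochberg adjustment over 20285 genes gave the same adjusted p-value (largest difference 1.44e-15).

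Library depth was not analysed here. The mean counts sum to 38846803, and 13197 genes reached a mean of 100, with a median standard error of 0.13. Computed here, with Python 3.11.15, SciPy 1.17.1 and statsmodels 0.14.6, were 95% normal intervals, implied group means, fitted spreads, levels per kb of GENCODE M21 exons (26276 of the gene IDs matched, 160 did not), counts per list and 10 alternatives. The recovery of changes was tested on simulated fold changes drawn with the authors' standard errors. That test checks the calling code and not the libraries. Standard errors of like mean are medians over 500 genes.

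The 10 genes and the 7 lists were chosen with earlier results of these data known. Beside the 10, up to 4 called genes with the largest change and a mean of at least 100 are named from each list. Relatives of the families, Basp1, Dcx, Gsk3a, Gsk3b, Vash2, Svbp and the markers were named as well. With 1 comparison, no gene was named for a like pattern. Of 158 listed genes, 150 had a value and 143 an adjusted p-value. Protein sequences were not used here. Some marker genes are not reported here.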

Additional observations from a re-analysis of the deposited data

How the results depend on the processing

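All 10 alternatives reuse the authors' means, fold changes and standard errors. Against a null of a 1.2-fold change in place of 0, 3 of the 10 genes were called higher (Mapt, Map2 and Gap43) and 1 lower (Dpysl3), and of the other listed genes 14 were called higher and 18 lower. With the mean expression trend removed, 1 of the 10 was called lower. All other counts stayed within 1.5 times the main ones. Of the 10 genes, 6 had the same direction and call under every alternative (Mapt, Map2, Gap43, Dpysl3, Stmn2 and Stmn3). Map1a lost its call under 5 alternatives, Stmn1 under 2 and Map4 under 1. Map1b, never called, changed sign to -0.0697 with the transcript length trend removed. Centring subtracted 0.06 (median protein-coding gene) or -0.02 (implied group totals) from each log2 fold change. Of the 27 other genes named by rule, 18 kept their call throughout and none changed sign. The other 9 (Clip2, Crmp1, Camk2b, Jakmip1, Nav3, Dpysl2, Atat1, Ttll7 and Ttl) were not called against the 1.2-fold null.

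No paired analysis was possible because the table holds no values of single libraries and the labels give the groups no shared replicate numbers. The libraries are numbered 1, 11 and 21 (undifferentiated) and 5, 15 and 25 (differentiated). The labels do not say whether these mark paired cultures, which was not tested. Leaving out single libraries and another normalization of counts were not run, since both need library values. Low counts limit Stmn4 and the marker genes near 0. Stmn2 is limited by a standard error 4.38 times that of genes of like mean, and the cause was not tested.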
